A study of Mus musculus with 39 samples.

Results

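Transcripts of 42 genes that mark macrophages and other myeloid cells were followed in interscapular brown fat, the heat-producing depot between the shoulder blades of the mouse. The genes were taken by name from a list and needed a mean of at least 10 normalised counts over 16 RNA libraries, a cut that 41 of the 42 passed out of 13176 genes that passed among the 24116 entries of the deposited table. Only Timd4, a receptor of long-lived resident macrophages, fell below it, with a mean of 5.38, and the nearest members above it were Lyve1 at 16.2 and Clec4n at 16.5. All libraries came from male C57BL/6J mice with a floxed Bcl6 gene, that is, one flanked by sites for the recombinase Cre. Bcl6 encodes a transcriptional repressor. Control mice carried no Cre, and Cre in the second genotype was driven by the Ucp1 promoter, which is active in brown adipocytes, so the recombinase is directed at adipocytes and not at macrophages. Each genotype was housed at a constant 22 °C or 30 °C with free access to standard chow, which gave 4 groups of 4 polyA libraries, and the labels give no ages. Whether the 4 libraries within a group represent different animals is not stated, so p-values here measure the spread between these samples. In bulk tissue, fewer cells of a type and less RNA per cell cannot be told apart.

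Macrophages live in every fat depot, where they engulf dying cells, take up lipid and handle debris in acidic lysosomes. They sense bacterial products and damage through Toll-like receptors and C-type lectins, bind antibody-coated particles through Fc receptors that signal through adaptors with ITAM motifs, and make reactive oxygen with the NADPH oxidase of the phagosome. Some are long-lived residents with scavenger and engulfment receptors, here taken as Lyve1, Folr2, Cd163, Mrc1, Mertk and Clec10a. Others derive from blood monocytes that enter in response to chemokines, and the markers linked to them here are Ccr2, Itgam, Cd14, Clec7a, Clec4n, Tlr2, Cd86 and Cx3cr1. The remaining 27 members were not assigned to either type, and some of them, such as Ptprc and Cd53, mark leukocytes more broadly than macrophages.

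The sequence before the members' transcription starts was read for the purine-rich core GAGGAA. That core is bound by PU.1, the product of the member Spi1 and the master regulator of myeloid genes. RefSeq windows of 250 bases before the start (GRCm38.p6, the assembly named mm10) were at hand for 29 of the 42 members, in 34 windows. GAGGAA was present on at least 1 strand in the windows of 15 of the 29 members (51.7%), against 25.9% of 27025 genes in the same table. A longer form, GAGGAAGT, which contains the core, was found in 1 member, C1qc (3.45%, against 2.79% of all genes). The STAT-like letters TTCCTNGAA, a motif also recognised by BCL6, were in 0 of the 29 members and in 1.54% of all genes. A match is a run of letters and no measured binding site. The members were listed as myeloid markers with earlier results of these data known, so their share of matches may depend on that choice. A part of PU.1 in the differences between groups was not tested. The windows of the 4 members Ctss, Slc11a1, C1qc and Clec7a, which were higher in Cre-labelled fat at 30 °C, are shown beside that of Cd163, which was not, and they were chosen after these values were seen. Each is written 5′ to 3′ along the gene's strand, with GAGGAA or its reverse complement TTCCTC in capitals, and the last base is next to the start. The match lies 164 bases before the start in Ctss (chr3:95526536-95526785, plus strand), 152 in Slc11a1 (chr1:74374953-74375202, plus strand), 193 in C1qc (chr4:136892915-136893164, minus strand) and 96 in Clec7a (chr6:129472780-129473029, minus strand). Cd163 (chr6:124304401-124304650, plus strand) has no match in this window. Other members went the other way. Lyz2, Mpeg1, Cybb, Fcer1g, Mertk, Ncf1, Irf8 and Cd84 were higher at 30 °C and had no match. Aif1, Fcgr1 and Tlr13 had a match and were not called at 30 °C.
Ctss: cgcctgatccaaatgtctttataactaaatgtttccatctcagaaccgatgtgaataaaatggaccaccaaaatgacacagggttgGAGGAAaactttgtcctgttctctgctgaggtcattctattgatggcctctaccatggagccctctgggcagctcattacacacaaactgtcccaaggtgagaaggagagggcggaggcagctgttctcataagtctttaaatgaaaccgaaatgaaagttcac
Slc11a1: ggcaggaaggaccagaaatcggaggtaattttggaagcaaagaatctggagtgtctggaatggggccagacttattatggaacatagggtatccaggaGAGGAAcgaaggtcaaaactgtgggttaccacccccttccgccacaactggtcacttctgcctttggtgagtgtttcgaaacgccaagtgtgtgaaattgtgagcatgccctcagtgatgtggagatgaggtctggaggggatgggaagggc
C1qc: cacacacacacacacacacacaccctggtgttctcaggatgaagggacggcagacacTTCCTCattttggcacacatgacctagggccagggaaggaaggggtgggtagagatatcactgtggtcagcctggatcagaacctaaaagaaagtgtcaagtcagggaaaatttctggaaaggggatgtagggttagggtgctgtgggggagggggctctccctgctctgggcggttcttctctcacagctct
Clec7a: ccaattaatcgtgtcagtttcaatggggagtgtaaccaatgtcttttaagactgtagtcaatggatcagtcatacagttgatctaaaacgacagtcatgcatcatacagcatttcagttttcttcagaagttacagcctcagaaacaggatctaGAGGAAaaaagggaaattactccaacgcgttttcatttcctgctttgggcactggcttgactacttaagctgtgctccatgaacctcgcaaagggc
Cd163: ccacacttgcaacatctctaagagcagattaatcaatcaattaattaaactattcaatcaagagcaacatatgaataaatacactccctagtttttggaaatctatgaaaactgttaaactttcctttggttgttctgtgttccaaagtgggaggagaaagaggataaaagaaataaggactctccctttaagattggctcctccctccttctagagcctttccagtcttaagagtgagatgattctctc

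Bcl6 itself read higher in the libraries labelled as carrying Cre. Its normalised counts were 3269, 4451, 5159 and 4985 in those libraries at 30 °C and 2340.4, 2266, 1763 and 1020.1 in controls (log2 difference 1.32 with SE 0.27, limma adjusted p = 0.00438), and the difference at 22 °C was 1.70 (adjusted p = 8.25e-04). A gene-level value does not show which exons remain, so it does not check the deletion. These libraries are therefore called Cre-labelled throughout, and a direction drawn between them and controls follows the labels. Ucp1, the gene whose promoter drives Cre, was lower in them, with log2 differences of -1.68 (adjusted p = 2.80e-04) at 30 °C and -0.94 (adjusted p = 0.0227) at 22 °C. Totals of normalised counts ran from 8867615 to 13516936 per library and genes above 0 from 14311 to 16849, lowest in control 22 °C library 1. The depth in reads is unknown. Values per gene length were not used here, so levels are compared between libraries and never between genes.

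The first comparison asked whether myeloid transcripts differed with the Cre label in mice at 30 °C, close to thermoneutrality for the species. Of the 41 members, 24 were higher in Cre-labelled fat and 0 were lower, where 5.65% of all genes tested were higher and 6.85% lower at a limma adjusted p under 0.05, the threshold used throughout. The lysosomal and complement genes were all higher, together with most surface markers and Fc receptor components, while 1 of 7 pattern recognition receptors and 0 of 2 chemokine receptors passed. Differences are on the scale of log2(normalised count + 1), Cre-labelled minus control. They ran from -0.39 for Cd163 to 1.96 for Ctss with a median of 1.02, and the median over all genes was 0.01. By an unadjusted p under 0.05, 30 members were higher and 0 lower. For 26 members every Cre-labelled library stood above every control library, as for 10.5% of all genes, and for 0 the reverse held, as for 12.4% of all genes. When every library was scaled to the same total, 55.6% of all genes called were higher, against 45.2% as deposited, and the median of all genes moved to 0.07. The calls of Cd84, Clec7a, Itgam, Mrc1 and Ptprc were each lost when certain single libraries at 30 °C were left out: control libraries 2 or 4 or Cre-labelled libraries 1 or 4 for all 5 genes, also control library 3 or Cre-labelled library 2 for Cd84 and Itgam, and control library 1 or Cre-labelled library 3 for Mrc1. The call of Cd84 was also lost without control 22 °C library 2 or Cre-labelled 22 °C library 4. Their highest adjusted p over all alternatives was 0.152, 0.07, 0.137, 0.111 and 0.0661 in that order, and the other 19 calls stood under every alternative tried.

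**Figure D1:**
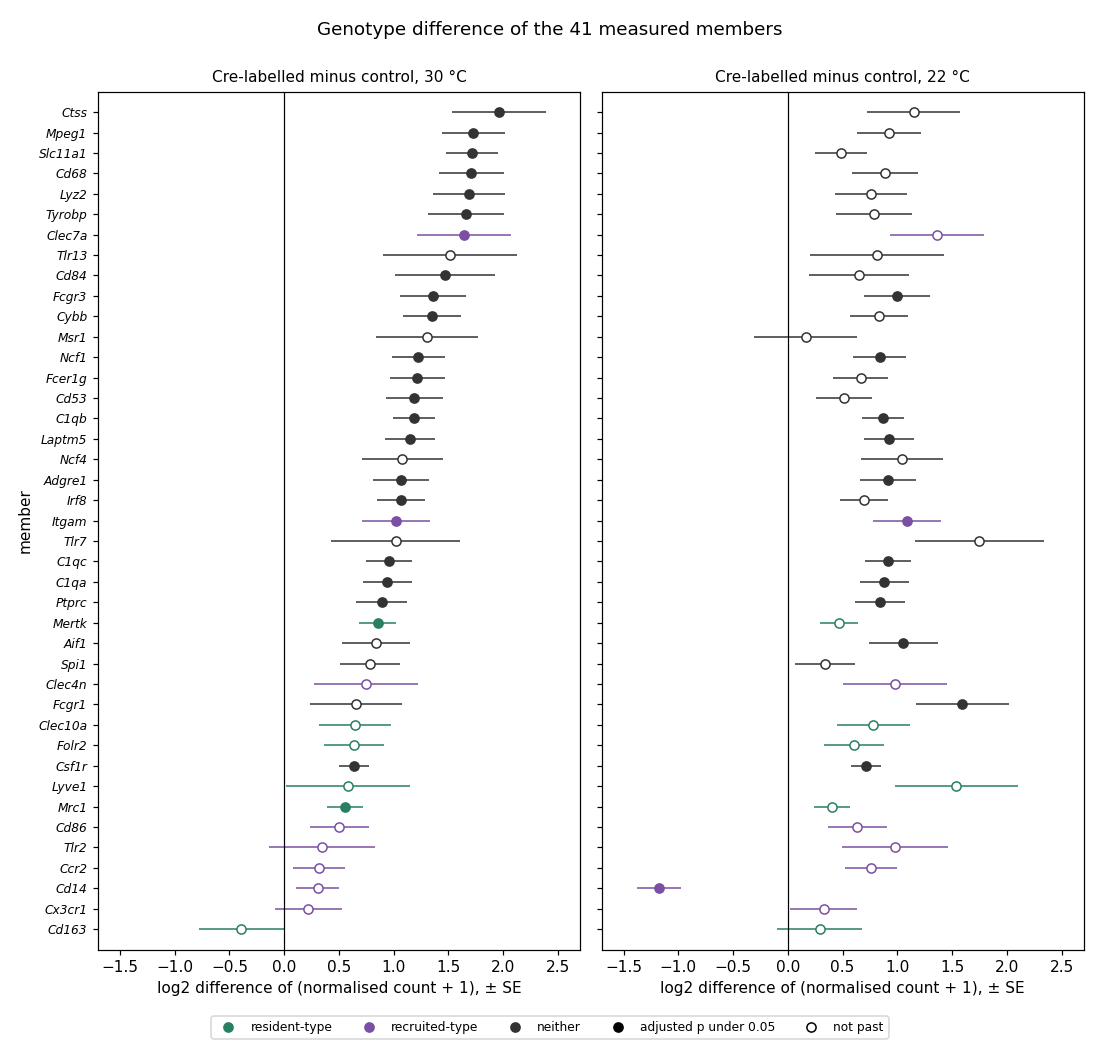
Log2 difference between Cre-labelled and control libraries for each of the 41 members, at 30 °C and at 22 °C, with bars of 1 standard error of the limma fit and filled points for members with an adjusted p under 0.05. Cd14 is the only member past the threshold to the left of 0, at 22 °C, and the 24 filled points at 30 °C all lie to the right.

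At 22 °C the same question gave fewer calls. Higher levels in Cre-labelled fat were found for 12 members, with 5.51% of all genes called higher, and 1 member, Cd14, was lower, with 4.69% of all genes called lower. The 12 were C1qa, C1qb, C1qc, Laptm5, Csf1r, Itgam, Adgre1, Ptprc, Aif1, Fcgr1, Fcgr3 and Ncf1. The 2 genotype comparisons share no libraries but do share the estimate of spread from all 16, so their calls are not independent. Without single 30 °C libraries, for example, the 22 °C calls of Aif1 and Fcgr3 were lost. Among the members called higher, 10 were common to both, which is 41.7% of the 24 at 30 °C and 83.3% of the 12 at 22 °C. Only Aif1 and Fcgr1 passed at 22 °C and not at 30 °C, which does not show that they differ between temperatures. The median difference was 0.83, and 30 members were higher and 1 lower at an unadjusted p under 0.05. The groups did not overlap for 15 members that were higher and 1 that was lower, against 6.38 and 6.06% of all genes. The count of 12 rested on single libraries: it was 3 without Cre-labelled library 1, 4 without control library 3, 5 without control library 2 and 21 without control library 1. It also fell to 4 with only these 2 groups in the model and to 5 with quantile normalisation, and rose to 23 with equal library totals. Equal totals moved the median of all genes to 0.17, and 81.2% of all genes called were then higher, against 54.0% as deposited, so differences of the members are best read relative to that shift.

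**Figure D2:**
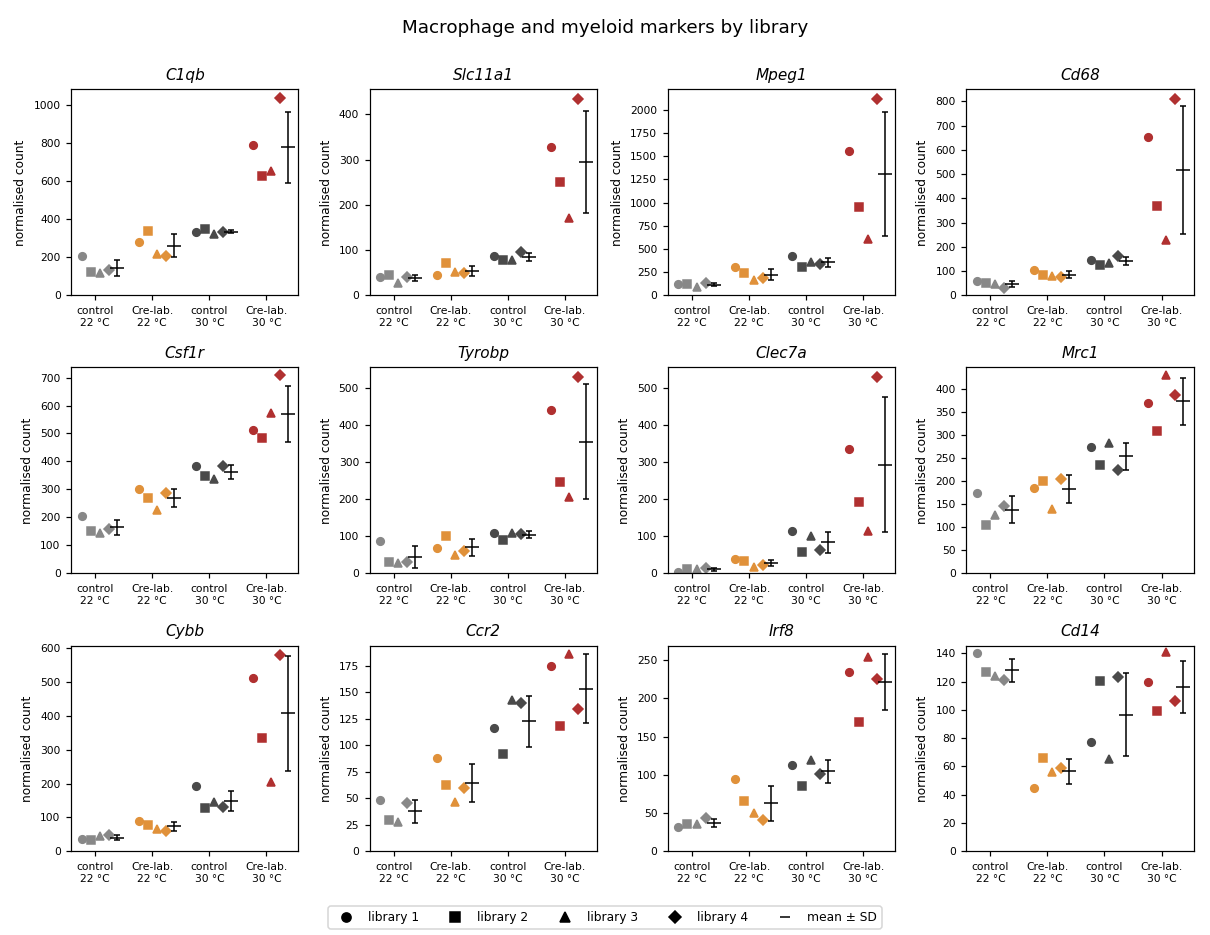
Normalised counts of 12 members (C1qb, Slc11a1, Mpeg1, Cd68, Csf1r, Tyrobp, Clec7a, Mrc1, Cybb, Ccr2, Irf8 and Cd14) in each of the 16 libraries, by group, from 0 on a linear axis, with the mean and SD of the 4 libraries per group beside the points. Cd14 shows the Cre-labelled 22 °C libraries below all 4 controls at that temperature.

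The 3 complement genes C1qa, C1qb and C1qc encode the chains of C1q, which binds antibody and dying cells and starts the classical complement pathway. They lie side by side on chromosome 4, with gaps of 3.6 kb between C1qb and C1qc and 2.98 kb between C1qc and C1qa. For C1qb the values in libraries 1 to 4, the order used from here on, were 793, 631, 653 and 1038 in Cre-labelled and 334, 349, 325 and 334 in control fat at 30 °C (log2 difference 1.18 with SE 0.19, limma adjusted p = 7.06e-04). At 22 °C they were 279, 339.5, 219.5 and 207 against 205, 122, 116 and 133 (log2 difference 0.87, adjusted p = 0.00876). Every Cre-labelled library stood above every control. C1qc read 509.8, 457, 429 and 613 against 304, 247, 273 and 206 at 30 °C (log2 difference 0.96 with SE 0.21, limma adjusted p = 0.00627) and 211, 282, 189.6 and 179 against 169, 84.1, 85.9 and 128 at 22 °C (log2 difference 0.92, adjusted p = 0.0105). Its groups did not overlap either. C1qa differed by 0.94 (adjusted p = 0.0108) at 30 °C and 0.88 (adjusted p = 0.02) at 22 °C, where its groups overlapped. The calls of C1qb and C1qc at 22 °C were lost when only the 2 groups compared entered the model, with adjusted p = 0.0547 and 0.0647.

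All 6 lysosome and phagosome genes were higher in Cre-labelled fat at 30 °C, with a median difference of 1.71, and 1 of the 6, Laptm5, at 22 °C. Slc11a1, a metal transporter of the phagosome membrane, read 327, 249.7, 171 and 435 in Cre-labelled and 86.2, 78.9, 77.2 and 95.6 in control libraries at 30 °C (log2 difference 1.72 with SE 0.24, limma adjusted p = 1.67e-04). At 22 °C its values were 45.5, 70.4, 51.5 and 48.5 and 39.3, 44.2, 27.9 and 41.4 (log2 difference 0.49, adjusted p = 0.211). The groups stayed apart at both temperatures, but only the difference at 30 °C passed. Mpeg1, the pore-forming perforin-2 of phagocytes, read 1554, 957, 608 and 2118 against 427, 309.5, 357 and 335 at 30 °C (log2 difference 1.73 with SE 0.29, limma adjusted p = 8.94e-04) and 302, 242, 163 and 188 against 125, 123, 87.2 and 129 at 22 °C (log2 difference 0.92, adjusted p = 0.053). The lowest Cre-labelled library stood above the highest control at each temperature. The protease cathepsin S (Ctss), the lysozyme Lyz2 and the glycoprotein Cd68 differed at 30 °C by 1.96 (adjusted p = 0.00617), 1.69 (adjusted p = 0.00273) and 1.71 (adjusted p = 0.00122), and the lysosomal membrane protein Laptm5 by 1.15 (adjusted p = 0.00326). Lyz2 has a near-identical neighbour, Lyz1, and how reads of such pairs were split is not stated, so its value is uncertain, as is that of Csf2rb2 beside Csf2rb.

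Of 8 surface identity and adhesion genes, 6 were higher in Cre-labelled fat at 30 °C and 5 at 22 °C. Cd53, a tetraspanin of leukocytes, read 335, 212, 152 and 404 against 124, 96.1, 116 and 113 at 30 °C (log2 difference 1.19 with SE 0.26, limma adjusted p = 0.00595). Its values at 22 °C were 79.7, 66.2, 52.6 and 45.2 against 33.1, 48.5, 37.5 and 48.7 and the groups overlapped (log2 difference 0.51, adjusted p = 0.225). Csf1r, the receptor for the growth factors that keep macrophages alive, read 512, 482, 573 and 707 against 385, 346, 338 and 382 at 30 °C (log2 difference 0.63 with SE 0.14, limma adjusted p = 0.00603). At 22 °C it read 299.8, 268, 227 and 288 against 204, 152, 146 and 157 (log2 difference 0.72 with SE 0.14, limma adjusted p = 0.00323). Csf1r was higher without overlap at both temperatures, and its call and that of Cd14 were the only ones at 22 °C to stand under every alternative tried. Itgam, the integrin subunit CD11b, read 230.2, 158, 80.03 and 260.4 against 114, 57.9, 74.3 and 88.0 at 30 °C, with overlap (log2 difference 1.02 with SE 0.31, limma adjusted p = 0.0389), and 44.7, 39.2, 32.0 and 46.3 against 26.6, 15.97, 16.8 and 15.8 at 22 °C, without (log2 difference 1.09 with SE 0.31, limma adjusted p = 0.0343). Cd86, a costimulatory molecule, read 63.8, 46.7, 59.6 and 44.4 against 38.4, 38.3, 47.6 and 26.9 at 30 °C and 27.5, 33.8, 21.6 and 30.7 against 27.8, 10.6, 20.3 and 16.1 at 22 °C, with overlap and adjusted p = 0.257 and 0.146. Adgre1, which encodes the macrophage antigen F4/80, and Ptprc, the pan-leukocyte antigen CD45, were higher at both temperatures, with differences of 1.07 and 0.89 at 30 °C and 0.91 and 0.84 at 22 °C.

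Of the 4 Fc receptor and adaptor genes, 3 passed at 30 °C and 2 at 22 °C. The adaptor Fcer1g, the shared signalling chain of Fc receptors, read 345, 201, 177 and 387 in Cre-labelled and 143, 80.6, 116 and 119 in control fat at 30 °C (log2 difference 1.22 with SE 0.25, limma adjusted p = 0.00413) and 76.4, 88.2, 61.1 and 67.3 against 63.6, 39.4, 38.4 and 44.1 at 22 °C (log2 difference 0.66, adjusted p = 0.102). Tyrobp, the adaptor DAP12, read 441, 246, 206 and 530.3 against 109, 90.5, 109.8 and 106 at 30 °C (log2 difference 1.66 with SE 0.35, limma adjusted p = 0.00459). Its 22 °C values were 68.4, 102, 49.0 and 61.2 against 88.3, 31.1, 27.7 and 29.4, and control library 1 stood above 3 of the 4 Cre-labelled libraries (log2 difference 0.79, adjusted p = 0.165). Both adaptors were apart at 30 °C and overlapped at 22 °C. The low-affinity receptor Fcgr3 differed by 1.36 (adjusted p = 0.00655) at 30 °C and 1.00 (adjusted p = 0.0438) at 22 °C. The high-affinity receptor Fcgr1 had the reverse order of calls, 0.66 (adjusted p = 0.357) at 30 °C and 1.59 (adjusted p = 0.0233) at 22 °C, and the difference between the 2 temperatures was not past the threshold (adjusted p = 0.642).

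Among 7 pattern recognition receptors, 1 passed at 30 °C and 1 at 22 °C, in opposite directions. Clec7a, the fungal beta-glucan receptor Dectin-1, read 337, 193, 115 and 530.1 in Cre-labelled and 113, 58.2, 99.7 and 62.04 in control fat at 30 °C (log2 difference 1.64 with SE 0.43, limma adjusted p = 0.0185) and 37.9, 33.6, 18.1 and 22.5 against 4.14, 12.2, 12.9 and 13.6 at 22 °C (log2 difference 1.36, adjusted p = 0.0529). Its groups did not overlap. Tlr13, which senses bacterial ribosomal RNA in the endosome, read 117, 68.8, 37.1 and 139 against 32.2, 24.3, 23.6 and 31.3 at 30 °C and 9.34, 12.3, 8.29 and 7.82 against 0, 8.14, 12.3 and 8.60 at 22 °C, so that control library 1 was listed at 0. Neither difference passed (adjusted p = 0.123 and 0.437). Tlr2, a receptor for bacterial lipoproteins, read 71.6, 35.3, 18.6 and 60.6 against 42.3, 19.9, 23.8 and 53.9 at 30 °C and 19.3, 8.63, 35.5 and 10.4 against 11.5, 6.68, 9.89 and 4.20 at 22 °C (adjusted p = 0.718 and 0.217). Clec4n, Dectin-2, read 38.7, 31.1, 19.9 and 35.6 against 19.7, 13.0, 15.7 and 24.3 and, at 22 °C, 5.79, 12.1, 10.3 and 12.1 against 16.8, 4.11, 1.70 and 2.55 (adjusted p = 0.352 and 0.208). Both overlapped at both temperatures. Clec10a, a galactose-type lectin counted here as a resident marker, read 98.6, 74.9, 174 and 66.6 against 101, 49.1, 67.0 and 41.7 at 30 °C and 43.9, 50.3, 43.8 and 56.3 against 49.0, 28.5, 18.2 and 22.9 at 22 °C (adjusted p = 0.235 and 0.147). Tlr7, a sensor of single-stranded RNA, differed by 1.02 (adjusted p = 0.301) and 1.75 (adjusted p = 0.0692).

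Cd14, the coreceptor that hands lipopolysaccharide to TLR4, had a direction that no other called member had. At 22 °C it read 44.7, 66.0, 56.1 and 59.1 in Cre-labelled libraries, below every control at 139.9, 126, 124 and 121 (log2 difference -1.18 with SE 0.20, limma adjusted p = 0.00112). At 30 °C the values were 119.7, 99.0, 141 and 106 and 77.3, 121, 65.5 and 123, with overlap (log2 difference 0.31 with SE 0.20, limma adjusted p = 0.361). Cd14 was the only one of the 41 members past the threshold for the interaction, the genotype difference at 30 °C minus that at 22 °C (log2 difference 1.48 with SE 0.28, limma adjusted p = 0.0256). That comparison called 0.440% of all genes, 0.175% higher and 0.266% lower. With equal totals 16.3% of the genes it called were higher, against 39.7% as deposited, and the median of all genes was -0.11. The interaction call was lost, with the adjusted p reaching 0.0663, when any of control 22 °C library 3, control 30 °C library 1, control 30 °C library 3, Cre-labelled 22 °C library 1 and Cre-labelled 30 °C library 1 was left out, and with a term for the replicate number. Beside Cd14, Slc11a1 had the next smallest p of the members for the interaction, at 1.23 (adjusted p = 0.16), and 2 members were higher and 0 lower at an unadjusted p under 0.05. The median interaction over members was 0.23. For the other 40 members, then, a difference between the genotype effects at 30 °C and 22 °C was not past the threshold, which does not show that the effects were alike.

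Of 6 scavenging and engulfment receptors measured, Mertk and Mrc1 were higher at 30 °C and 0 passed at 22 °C. Mertk, the kinase receptor for the engulfment of dying cells, read 601, 533, 404 and 517 in Cre-labelled and 302, 278, 289 and 256 in control fat at 30 °C (log2 difference 0.85 with SE 0.17, limma adjusted p = 0.00354) and 310.0, 179, 338 and 271 against 163, 203, 189.9 and 221 at 22 °C (log2 difference 0.47, adjusted p = 0.095). Mrc1, the mannose receptor, read 370.2, 309, 432 and 389 against 275, 235, 284 and 224 (log2 difference 0.55 with SE 0.16, limma adjusted p = 0.0347) and, at 22 °C, 185, 201, 139 and 206 against 174, 106, 127 and 147 (adjusted p = 0.13). Both were separate at 30 °C only. Cd163, which clears haemoglobin bound to haptoglobin, read 56.4, 96.4, 220.0 and 56.4 against 123, 171, 159 and 60.7 at 30 °C and 104, 115, 94.1 and 91.1 against 48.7, 100.2, 88.1 and 106 at 22 °C. It was the only member with a negative difference at 30 °C (log2 difference -0.39 with SE 0.39, limma adjusted p = 0.587), and Cre-labelled library 3 was far above the other 3 of its group. Lyve1, a hyaluronan receptor, read 21.8, 21.5, 62.5 and 9.22 against 13.3, 32.3, 8.36 and 13.9 at 30 °C (adjusted p = 0.578) and 9.76, 23.2, 12.8 and 11.5 against 4.00, 9.36, 1.01 and 5.07 at 22 °C, where the groups did not overlap (log2 difference 1.54, adjusted p = 0.093). Folr2, a folate receptor, read 73.2, 64.1, 90.0 and 38.3 against 46.0, 41.3, 50.4 and 27.8 and 23.2, 26.3, 21.8 and 38.9 against 22.8, 15.98, 16.5 and 15.1, with overlap at both temperatures (adjusted p = 0.15 and 0.182). Msr1, a scavenger receptor for modified lipoproteins, differed by 1.30 (adjusted p = 0.0794) at 30 °C.

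The catalytic subunit of the phagocyte NADPH oxidase and its cytosolic partners gave 2 calls of 3 at 30 °C and 1 at 22 °C. Cybb, the catalytic subunit NOX2, read 511, 334, 205 and 581 in Cre-labelled and 193, 128, 145 and 132 in control fat at 30 °C (log2 difference 1.35 with SE 0.26, limma adjusted p = 0.00269) and 89.9, 78.9, 66.3 and 59.2 against 36.3, 33.3, 44.9 and 48.7 at 22 °C (log2 difference 0.83, adjusted p = 0.0521). Ncf1, the organising subunit, read 113, 111, 91.7 and 177 against 42.8, 43.9, 65.2 and 53.3 (log2 difference 1.22 with SE 0.24, limma adjusted p = 0.00328) and, at 22 °C, 41.2, 32.7, 42.9 and 33.0 against 25.7, 27.6, 14.2 and 16.8 (log2 difference 0.84 with SE 0.24, limma adjusted p = 0.0376). Both genes were apart at both temperatures. Ncf4 differed by 1.08 (adjusted p = 0.0685) at 30 °C. Of the transcription factors, Irf8 read 235, 169, 255 and 226 against 113, 85.7, 119.8 and 101 at 30 °C (log2 difference 1.06 with SE 0.22, limma adjusted p = 0.00413) and 94.1, 65.7, 50.1 and 40.7 against 31.9, 35.2, 35.5 and 44.1 at 22 °C (adjusted p = 0.0529). Spi1, which encodes PU.1, read 77.1, 74.5, 52.3 and 107 against 41.8, 28.8, 48.8 and 60.4 and 29.8, 27.2, 17.5 and 19.7 against 22.5, 20.2, 18.0 and 12.6, with overlap (adjusted p = 0.0743 and 0.478). So Irf8 passed at 30 °C and Spi1 at neither temperature.

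Neither chemokine receptor passed. Ccr2, which draws monocytes out of marrow and blood towards CCL2, read 175, 118, 186 and 134 in Cre-labelled and 116, 91.7, 142 and 139.9 in control fat at 30 °C (log2 difference 0.32 with SE 0.24, limma adjusted p = 0.436). At 22 °C it read 88.3, 62.8, 46.1 and 59.5 against 48.1, 29.2, 27.6 and 45.8 (log2 difference 0.76 with SE 0.24, limma adjusted p = 0.0502). Its groups overlapped at both temperatures. Cx3cr1, the fractalkine receptor, read 42.7, 31.5, 63.7 and 35.1 against 38.1, 24.7, 38.7 and 44.6 and 28.5, 26.9, 26.6 and 23.5 against 39.7, 16.1, 13.1 and 22.0, also with overlap (adjusted p = 0.719 and 0.548).

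Warm housing went with higher myeloid transcripts in both genotypes. In controls 38 of 41 members were higher at 30 °C than at 22 °C and 0 were lower, where 22.9% of all genes were called higher and 22.7% lower. In Cre-labelled fat 37 were higher and 0 lower, where 15.0% of all genes were higher and 17.7% lower. The median difference was 1.39 in controls and 1.58 in Cre-labelled fat. All 4 warm libraries stood above all 4 cooler ones for 32 members in controls (19.9% of all genes, with 21.3% in reverse) and for 37 in Cre-labelled fat (16.2 and 18.3%), and the reverse held for 0 members. Clec7a had the largest difference in each, with 2.90 (adjusted p = 7.00e-05) in controls and 3.18 (adjusted p = 6.03e-05) in Cre-labelled fat. In controls Fcgr1, Tlr13 and Ctss followed at 2.58, 2.29 and 2.27. Those of Tlr7 and Tlr13, 2.12 and 2.29, were 1.26 and 1.44 without control 22 °C library 1, in which both were listed at 0. The 3 members without a call in controls were Cd14, Cd163 and Cx3cr1, with -0.45 (adjusted p = 0.0709), 0.53 (adjusted p = 0.272) and 0.75 (adjusted p = 0.0541). In Cre-labelled fat the 4 were Cd163, Cx3cr1, Lyve1 and Tlr7, with -0.15 (adjusted p = 0.808), 0.64 (adjusted p = 0.118), 0.72 (adjusted p = 0.354) and 1.39 (adjusted p = 0.0804), and Cd14 was higher by 1.03 (adjusted p = 8.58e-04). Ccr2, which did not pass between genotypes, was higher at 30 °C by 1.70 (adjusted p = 4.13e-05) in controls and 1.26 (adjusted p = 7.53e-04) in Cre-labelled fat.

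These temperature differences depend on how libraries are scaled. With equal totals the median of all genes moved to 0.43 in controls and 0.31 in Cre-labelled fat, and the share of all calls that were higher went from 50.2 to 85.0% and from 45.9 to 79.6%. The members' median moved with it, from 1.39 to 1.78 in controls. Equal totals shift all genes of a library nearly alike, so the members' distance from the median of all genes is not tested by this scaling. Under quantile normalisation, which forces 1 distribution on all libraries, the median over members was 1.03 in controls and 1 member, Cd14, was lower. Leaving out control 22 °C library 3 took the difference of Msr1 in controls from 1.30 to 0.85, with adjusted p = 0.119 by limma, and the calls of Msr1, Lyve1 and Mertk in controls and of Tlr2, Clec10a, Clec4n and Cd86 in Cre-labelled fat were each lost without at least 1 single library. These included control 22 °C library 1 for Mertk, control 22 °C library 3 and control 30 °C library 2 for Lyve1, and Cre-labelled 30 °C library 1 for Tlr2, Clec10a, Clec4n and Cd86. The temperature and genotype comparisons share libraries, so their values stand side by side here and no overlap is drawn from them.

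**Figure D3:**
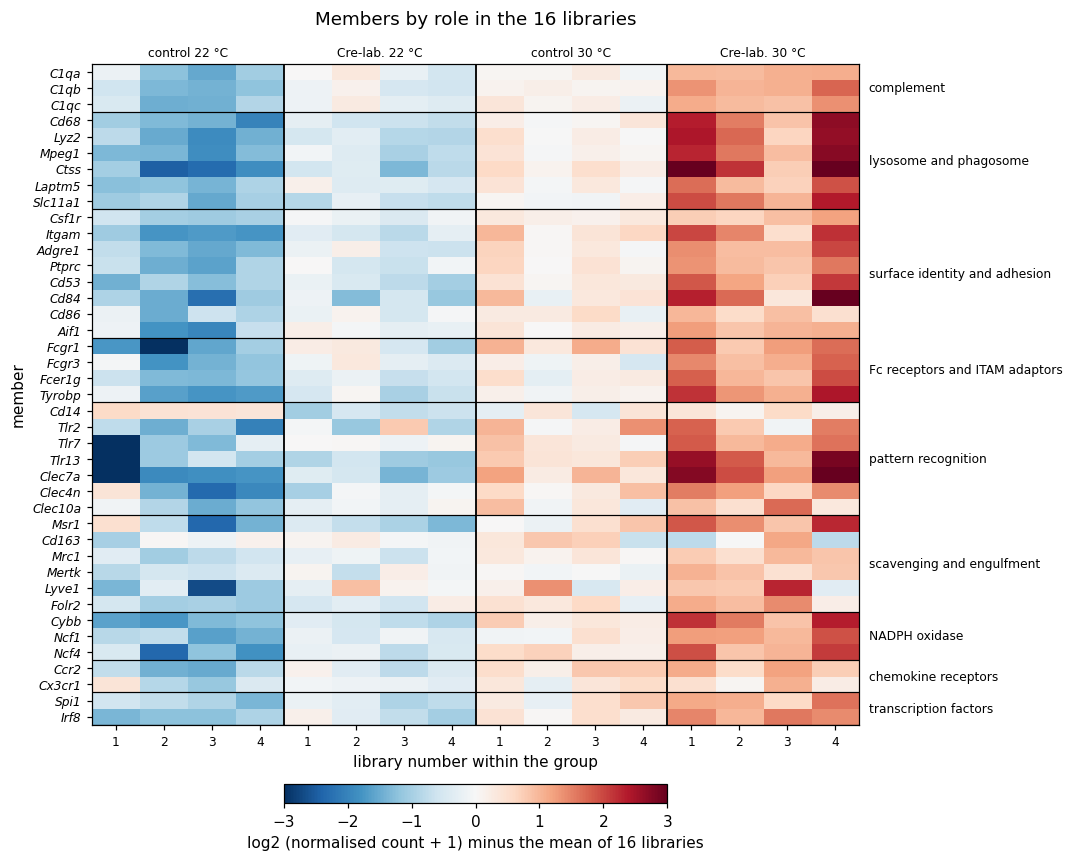
Heat map of the 41 members (rows, grouped by role) in the 16 libraries (columns, by group), as log2(normalised count + 1) minus the gene's mean over the 16 libraries, with the colour scale limited to -3 to 3. Most rows pass from low in control 22 °C to high in Cre-labelled 30 °C libraries, and Cd163 and Cd14 are among the rows that do not.

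Resident-type and recruited-type markers were then set side by side, with no test on either list. In Cre-labelled against control fat at 30 °C, 2 of 6 resident-type members were higher (Mertk and Mrc1, list median 0.61) and 2 of 8 recruited-type members (Clec7a and Itgam, list median 0.42), against 20 of 27 members of neither type (list median 1.19). At 22 °C the counts were 0 of 6 resident-type (median 0.53), 1 of 8 recruited-type higher and 1 lower (Itgam and Cd14, median 0.87) and 11 of 27 of neither type (median 0.84). For temperature in controls, 5 of 6 resident-type, 6 of 8 recruited-type and 27 of 27 other members were higher, with medians of 1.00, 1.74 and 1.42. For temperature in Cre-labelled fat the counts were 4 of 6, 7 of 8 and 26 of 27, with medians of 0.95, 1.29 and 1.84. The recruited-type median for temperature in controls was 1.06 with a pseudocount of 10 and 1.17 with quantile normalisation, and that at 22 °C was 0.51 under each of these. The counts are fragile as well. The genotype calls of Mrc1, Clec7a and Itgam at 30 °C were each lost without certain single libraries, while that of Mertk stood under every alternative tried. Quantile normalisation removed the calls of Lyve1, Folr2, Clec10a, Clec4n and Cd86 for temperature in controls.

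Within the Cre-labelled 30 °C group the libraries did not rank alike for all members. The median within-group SD over members on the log2 scale was 0.516 there, against 0.188 over all genes, and it was 0.294 in control 30 °C, 0.453 in control 22 °C and 0.314 in Cre-labelled 22 °C libraries. A score, the mean over a list of each gene's log2 value minus its mean over 16 libraries, was 1.76, 1.21, 0.92 and 2.03 in Cre-labelled 30 °C libraries 1 to 4 for the 27 members of neither type. Among those, library 4 held the highest value for 23 of 27 and library 3 the lowest for 18 of 27. For resident-type members the score was 0.64, 0.59, 1.33 and 0.17, and library 3 was highest for 5 of 6. Over all genes tested library 3 was highest for 27.9% and library 4 for 27.3%. Recruited-type members scored 1.38, 0.84, 0.74 and 1.27, with library 3 lowest as for the members of neither type. Gene by gene they were split, and library 3 was lowest for 4 of 8 and highest for 3 of 8. Ctss, chosen after its values were seen, read 2346, 1294, 484 and 2911 in these libraries, and Cd68 653, 369, 229 and 809.7, while Cd163 read 56.4, 96.4, 220.0 and 56.4. Within 1 group of 4 this is a description, and no test was made of it. The skeletal muscle markers also differed between these libraries, with scores of -6.05, 3.27, 3.04 and 0.20, and their part in the pattern was not tested.

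**Figure D4:**
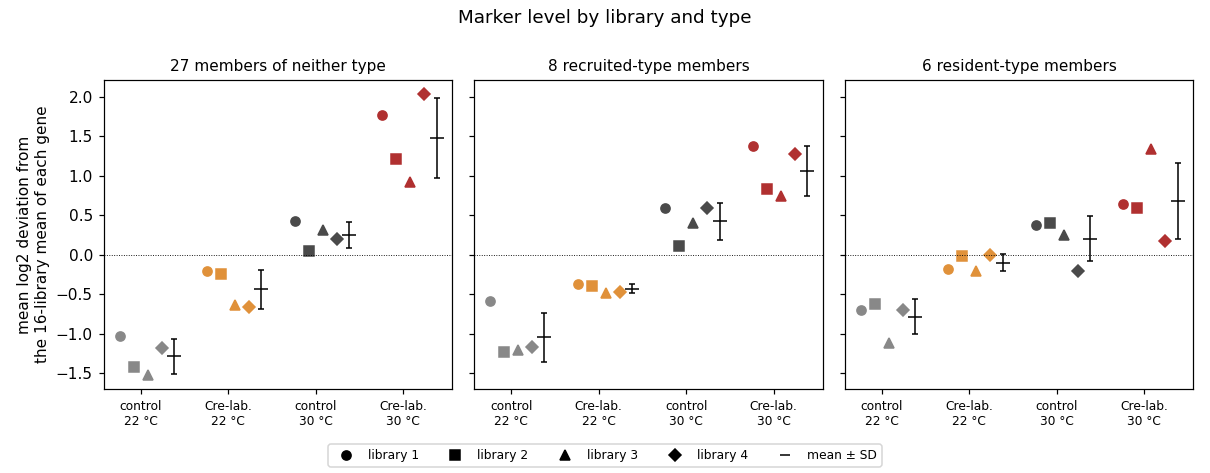
Scores of resident-type members, recruited-type members and members of neither type in the 16 libraries, each point 1 library, by group, as the mean over genes of the log2 deviation described above. In the Cre-labelled 30 °C group library 3 is highest for resident-type members, at 1.33, and lowest for the members of neither type, at 0.92.

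Genes of the same pathways that are not members followed in part. Their counts stand beside 5.65% of all genes called higher with the Cre label at 30 °C and 5.51% at 22 °C. Of 10 tested ITAM signalling genes, 7 were higher in Cre-labelled fat at 30 °C, 0 lower, led by the kinases Lyn and Syk and the adaptor Lat2 at 0.56 (adjusted p = 0.00118), 1.31 (adjusted p = 0.00186) and 1.58 (adjusted p = 0.00265). At 22 °C 5 of the 10 were higher. All 3 NADPH oxidase partners tested were higher at 30 °C, and 1, Cyba, at 22 °C by 0.78 (adjusted p = 0.0471). Of 10 tested Toll-like receptor partners, 3 were higher at 30 °C, among them the adaptor Myd88 by 0.62 (adjusted p = 0.0011) and Tlr8 by 1.64 (adjusted p = 0.00236), and 1 at 22 °C. Myd88 also passed for the interaction, by 0.94 (adjusted p = 0.00959), and was lower at 30 °C than at 22 °C in controls by -0.81 (adjusted p = 2.77e-05). Of 8 myeloid transcription factors, 4 were higher at 30 °C, led by Irf5 at 1.05 (adjusted p = 0.00316), and 0 at 22 °C. From the lipid-associated macrophage list, which marks foamy macrophages of fat, Lgals3, Gpnmb, Cd9 and Trem2 were higher at 30 °C, 4 of 9 tested, by 2.00 (adjusted p = 0.00392), 3.07 (adjusted p = 0.00722), 0.72 (adjusted p = 0.013) and 2.03 (adjusted p = 0.0356). At 30 °C 0 of the 9 were called lower, but 4 had negative differences, down to -0.51. Of these, 1 was lower at limma's unadjusted p under 0.05. The summed level of the list ran from 47905 to 62332 in Cre-labelled and from 53294 to 67902 in control fat at 30 °C, with overlap. At 22 °C 0 of the 9 were higher and 1, Lipa, was lower.

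Chemoattractants, growth factors and growth factor receptors that are not members were read as further lists. Any order of action between them and the members was not tested. Of 5 tested chemoattractants, 0 passed limma's test with the Cre label in either direction at 30 °C or at 22 °C, while 4, the monocyte chemokines Ccl2, Ccl7 and Ccl8 and the fractalkine gene Cx3cl1, were higher at 30 °C than at 22 °C in each genotype. Ccl2 differed by 2.67 (adjusted p = 4.48e-04) in controls and 3.16 (adjusted p = 1.92e-04) in Cre-labelled fat. Of all genes tested, 22.9% were called higher with warm housing in controls and 15.0% in Cre-labelled fat. By limma's unadjusted p under 0.05, 2 of the 5 were higher and 1 lower with the Cre label at 30 °C, and 1 and 1 at 22 °C. Of 6 growth factor and receptor genes, Csf2ra and Csf2rb2 were higher with the Cre label at 30 °C, and Csf2rb and Csf3r at 22 °C. Csf1, the ligand of Csf1r, was higher with warm housing by 1.28 (adjusted p = 1.28e-04) in controls.

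Markers of other cell types were read beside the members. With the Cre label at 30 °C, 0 of 5 further monocyte, 0 of 4 neutrophil, 0 of 7 T cell and 0 of 3 B cell genes passed in limma's test. Higher were 1 of 7 dendritic cell genes, Itgax, and 1 of 2 NK cell genes, Nkg7. Positive differences were nonetheless found for 5 of 5 monocyte, 3 of 4 neutrophil, 7 of 7 T cell and 2 of 3 B cell genes. They were also found for 7 of 7 dendritic and 2 of 2 NK cell genes. The list medians were 0.47, 0.51, 0.53, 0.31, 0.95 and 1.33 in that order, and 0.01 over all genes. The 1 mast cell gene tested differed by -0.02. At 22 °C 2 of 3 B cell genes, 1 of 7 T cell genes (Cd4), 1 of 4 neutrophil genes (Csf3r), 4 of 8 endothelial and 2 of 7 adipocyte progenitor genes were higher, and 2 of 7 brown fat identity genes (Elovl3 and Ucp1) were lower. Defining genes of several lists were near 0: 0 of 4 eosinophil and 1 of 5 mast cell genes reached the mean of 10. The summed level of neutrophil genes ran from 111 to 316 normalised counts in Cre-labelled and from 77.6 to 167 in control fat at 30 °C. Summed brown fat identity genes ran from 25929 to 31113 against 45887 to 52538, with Ucp1 and Cidea lower, 2 of 7. Summed adipocyte genes ran from 124580 to 157400 against 128750 to 145220, so these ranges overlapped. Those of all 42 listed members, Timd4 included, ran from 10260 to 24212 against 5813 to 7463 and did not. Skeletal muscle genes summed to between 37.0 and 21200 in Cre-labelled and between 6581 and 12316 in control fat at 30 °C, with 0 of 9 past the threshold. At 30 against 22 °C in controls, all 7 brown fat identity genes and 4 of 7 adipocyte genes were lower, and 4 of 8 endothelial and 4 of 7 adipocyte progenitor genes were higher. Also higher in that comparison were 4 of 5 monocyte, 4 of 7 T cell, 2 of 3 B cell, 2 of 4 neutrophil, 1 of 1 mast cell and 2 of 7 dendritic cell genes, with 1 of the latter lower. Skeletal muscle genes had a median log2 difference of 4.04 there: the groups did not overlap for 9 of 9, 2 were called higher, and their sums ran from 104 to 3002 at 22 °C. At 30 against 22 °C in Cre-labelled fat, 3 of 5 monocyte, 3 of 7 T cell, 0 of 3 B cell, 2 of 4 neutrophil, 1 of 1 mast cell, 1 of 2 NK cell, 1 of 7 dendritic cell, 1 of 8 endothelial and 5 of 7 adipocyte progenitor genes were higher. All 7 brown fat identity genes, 3 of 7 adipocyte genes and 1 of 7 dendritic cell genes were lower there, and 0 of 9 skeletal muscle genes passed, with a median of 0.11. Beside these counts, 5.65% of all genes were called higher and 6.85% lower with the Cre label at 30 °C, and 5.51 and 4.69% at 22 °C. With warm housing 22.9% were called higher and 22.7% lower in controls, and 15.0 and 17.7% in Cre-labelled fat. No list was tested against these shares. The part of these cell types in the members' differences was not tested.

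The authors' list of BCL6 peaks was searched for peaks whose nearest start belonged to a member. It came from a single ChIP-seq library of control brown fat at 30 °C. Bulk tissue does not assign a peak to a cell type, so a missing peak does not show absent binding in macrophages. Within 10 kb, 0 of 41 members had one, against 7.75% of all genes tested. Within 5 kb, and within 10 kb with a score at or above the median of the list, the counts were also 0, against 6.75 and 3.73% of all genes. Within 50 kb there were 2, against 11.9% of all genes. One lay 15514 bases upstream of Mpeg1 (mm10 chr19:12445175-12445355, intergenic, the authors' score 4.29, rank 2294 of 3022 peaks). The other lay 39122 bases downstream of the start of Mertk (mm10 chr2:128737947-128738127, in intron 3, score 10.2, rank 358). The score is the authors' own value and is used only to place the peak within that list.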

How the data were processed

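Per the labels' protocols the RNA libraries were stranded polyA libraries sequenced as single reads of 75 cycles. The deposited signal values are normalised counts, 1 per gene and library, which per the submitters' processing notes the authors made with kallisto, DESeq2 and mm10; versions and annotation are not stated. They do not fall on steps (at most 0.296% of values within 0.001 of a whole number), so reads were not recovered, and groups that differ in overall RNA content cannot be recognised. The peak score of each BCL6 peak is the authors' value, annotated with HOMER per the file headers and aligned with Bowtie2 per the submitters' processing notes; its scale is unknown. The 16 columns were matched to samples by name.

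Tests used limma 3.58.1 in R 4.3.3 on log2(value + 1), which understates the change of low genes. The model had 1 mean per group over 16 libraries, a trend with the mean, 13176 genes with a mean of at least 10 and Benjamini-Hochberg adjustment over all of them at 0.05 (residual degrees of freedom 12, prior 4.83). Bcl6, Ucp1 and all members may be named; values in every library are given for the 2 members of each role with the smallest adjusted p for genotype at 30 °C and for all resident-type and recruited-type members, and of further lists up to 3 genes by adjusted p, or 4 where 4 passed. The members, lists, tests and alternatives were chosen with earlier results of these data known. A simulation drew normal noise with the same SD for a gene in every group and changed genes in a single group. In these data the members' median SD was 0.516 in Cre-labelled and 0.294 in control 30 °C libraries. The simulated shares given next therefore describe that simpler setting and not the tests made here. In simulated data with 200 of 13176 genes changed, 70% (genotype at 30 °C), 75% (genotype at 22 °C), 67% (temperature in controls), 77% (temperature in Cre-labelled) and 40% (interaction) of changes of log2 size 1 were called, and 92, 94, 93, 94 and 84% of those of size 2; unchanged genes were 5.81, 10.1, 3.03, 2.29 and 8.15% of calls. Alternatives changed the pseudocount, filter, scaling, samples in the model, moderation, replicate number and each library; equal totals and leaving out the 2 libraries with the fewest genes were added after seeing the data. Promoter windows come from a RefSeq table of GRCm38.p6 that held 29 of the 42 members, and no genome sequence was used. Values of 2 genes of the further lists are not reported here.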

Additional observations from a re-analysis of the deposited data

Results flagged for a closer look

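Over 120 groups of 4 libraries examined (the 27 members with values given in every library, and the scores of all, resident-type and recruited-type members), 7 held a library that stood apart from the other 3, where chance gives about 1 in 20. That count is close to the rate given for chance, and the scores hold members that were also examined singly, so the groups are not independent. All 7 were in control 22 °C fat. Library 1, the one with the fewest genes above 0, read 88.3 for Tyrobp where the others read 27.7 to 31.1, 26.6 for Itgam where the others read 15.8 to 16.8, and 16.8 for Clec4n where the others read 1.71 to 4.11. The same library was low for Clec7a, at 4.14 against 12.2 to 13.6, and its recruited-type score was -0.58 against -1.24 to -1.16. Library 3 was low for Mpeg1, at 87.2 against 122.5 to 128.6, and for the resident-type score, at -1.12 against -0.70 to -0.62. Separately, the genotype difference of Cd14 differed between 30 °C and 22 °C by 1.48 on the log2 scale, by the interaction term.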

How the results depend on the processing

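No called member reversed its direction under any alternative run, while the untested interaction medians crossed 0 when single libraries were left out, from -0.27 to 0.10 for resident-type and from -0.37 to 0.04 for recruited-type members. Over all refits of called members, 2869 kept the call and 157 fell short of the threshold. Calls that stood under every alternative numbered 19 of 24 for genotype at 30 °C, 2 of 13 for genotype at 22 °C, 29 of 38 for temperature in controls, 33 of 37 for temperature in Cre-labelled fat and 0 of 1 for the interaction. With quantile normalisation, genotype at 22 °C gave 5 members higher and a recruited-type median of 0.51, and temperature in controls gave 1 member lower and medians of 1.03 for all members, 0.64 for resident-type and 1.17 for recruited-type members. With equal totals, genotype at 22 °C gave 23 members higher. The medians for all, resident-type and recruited-type members were then 1.78, 1.39 and 2.10 for temperature in controls, and those for all and resident-type members 1.87 and 1.24 in Cre-labelled fat. A pseudocount of 10 gave recruited-type medians of 0.51 for genotype at 22 °C and 1.06 for temperature in controls. A minimum mean of 50 gave a resident-type median of 0.71 for temperature in controls and a recruited-type median of 1.64 in Cre-labelled fat. With only the 2 groups compared in the model, genotype at 22 °C gave 4 members higher. BCL6 peaks within 50 kb numbered 2. The cause of these shifts was not tested.

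Leaving out 1 library at a time, members higher ranged from 19 to 29 for genotype at 30 °C, from 3 to 21 for genotype at 22 °C, from 36 to 39 for temperature in controls (lower, 0 to 1), from 33 to 38 for temperature in Cre-labelled fat and from 0 to 2 for the interaction. The labels give the groups the same replicate numbers, but same-numbered libraries did not deviate together: 1 of 16 correlations of their deviations was over 0.1, and the range was -0.48 to 0.17. With a replicate block the interaction had 0 members higher, and the genotype comparisons 24 at 30 °C and 13 at 22 °C. Depth in reads is unknown, and values near 0, as for Tlr13 and Clec4n at 22 °C, limit what could be called.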
